A study of Mus musculus with 4 samples.

Results

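Egr2 binding at the mouse Il2rb locus was read from 2 deposited ChIP-seq peak lists, 1 from natural killer T (NKT) cells and 1 from thymocytes that had received a strong T cell receptor (TCR) signal. The locus was taken as the 100 kb window chr15:78270000-78370000 of the mm9 genome, and every listed region that overlaps it was included. Of 6212 listed regions, 1 lies in the window. It belongs to the NKT list of 1996 regions, and 0 of the 4216 regions of the injected-thymocyte list lie there.

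NKT cells were purified with CD1d tetramers from Va14tg mice, which carry a transgene for the TCR alpha chain typical of NKT cells, and 20000000 cells from an average of 10 mice were pooled for each experiment. The other population is labelled only as thymocytes, with no sort named, and was collected 24 hours after 3 to 5 mice had been injected with 500 µg of an antibody against TCRb (clone H57), and 20000000 of them were used. The labels give the strain as Va14tg for all 4 libraries of the series, the injected mice included. The other two libraries are input DNA and an IgG ChIP; lists of their own were not analysed here. The control values below come with the Egr2 lists, and the sources do not name the library, input DNA or IgG, that supplied them. The same anti-EGR2 (Krox-20) antibody was used in both populations. Each condition had 1 library, so differences between them could not be checked against replicates, and no p-value is given. Intervals of tag ratios cover counting error only, and intervals of shares treat the listed regions as a sample.

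Il2rb encodes CD122, the beta chain shared by the receptors for interleukin-2 and interleukin-15. CD122 pairs with the common gamma chain, encoded by Il2rg, and signals through the kinases Jak1 and Jak3 to the transcription factor Stat5; the alpha chains, encoded by Il2ra and Il15ra, raise the affinity for each cytokine. Interleukin-15 supports the survival and late maturation of NKT cells, and CD122 is a surface marker of their later stages. Egr2 is a transcription factor with zinc fingers, and its gene is switched on in T cells by TCR engagement. Whether Egr2 occupies the Il2rb promoter in these cells is a question on which the study's authors reported.

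The NKT region lies at chr15:78325529-78325791 in mm9, spans 263 bp and has its summit at position 78325641, 112 bp from its left end and 150 bp from its right end. The 2 lines that describe it in the list, 1 for the region and 1 for the peak inside it, name the same summit, so this region holds a single listed peak. Other NKT regions in the window may be among the region numbers that are absent from the list, counted below. In the GRCm38.p6 gene table at hand, Il2rb (gene ID 16185) lies between Tmprss6, which encodes a membrane serine protease, and C1qtnf6, which encodes a secreted C1q-related protein. That table is of another build than the lists, and coordinates were not converted. The distance from the summit to the start of Il2rb was therefore not measured, and neither was its place in a promoter, exon or intron. The DNA sequence of the region is not printed for the same reason.

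At this summit the ChIP tag density, which is the authors' own height value, was 15.3, and the control density was 0.348. The region held 29 ChIP tags and 2 control tags. Scaled by the list's factor (1.14, the constant that links tag ratio to deposited tag enrichment where control tags are many), ChIP tags exceeded control tags 16.5-fold, with an exact 95% interval of 4.17 to 142. The deposited tag enrichment is lower, at 8.35, and lies within that interval. At few control tags the deposited value does not divide by the control tags alone. It was 6.62 for region number 463, which had 23 ChIP tags and 0 control tags. For number 460, with 5 control tags, the deposited and scaled values were equal, at 4.09. The lower end of the interval is above 1, while the small number of control tags leaves the upper end wide. Regions enter the list as peaks called on these same data, so a lower end above 1 is no independent support for enrichment. The deposited fold over control was 15.3, the same figure as the density, because the lists divide by 1 where the control density is below 1.

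The deposited strand shift, a measure of the offset between forward-strand and reverse-strand tags, was 70 bp on both lines. Whether it is the full distance between the strands or the shift applied to each strand is not stated. Tags from fragments that share a bound site fall on either side of it. Within the NKT list the deposited shift ran from 26 to 200 bp, and its relation to fragment length was not tested. At the shift of 70 bp, the correlation of the tag profiles of the strands was 0.951 for the peak and 0.947 for the region. Both strands thus showed similar profiles at this shift. Such values were frequent: the median peak correlation of the NKT list was 0.886, and 490 regions (24.5%) had a higher one. The deposited −log10 q values were 51.7 for the peak and 39.2 for the region.

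Within the NKT list the region stood in the upper part by height, tags and enrichment. Its density was above that of 1789 of 1996 listed regions, or 89.6% (exact 95% interval 88.2% to 90.9%), while 199 regions were taller and 7 others had the same density. That interval treats the list as a sample and leaves out the counting error of the region's own 29 tags. The median density of the list was 11.1 and the upper quartile 12.4. Its 29 ChIP tags compare with a median of 15, and 170 regions had more. By deposited tag enrichment 106 regions ranked above it, and 94.4% below. Control tags were fewer than usual: 1453 regions (72.8%) had more than 2. Its width of 263 bp exceeded that of 86.6% of the list. The highest densities of the list, up to 93.5, were far above that of the Il2rb window's region.

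**Figure D1:**
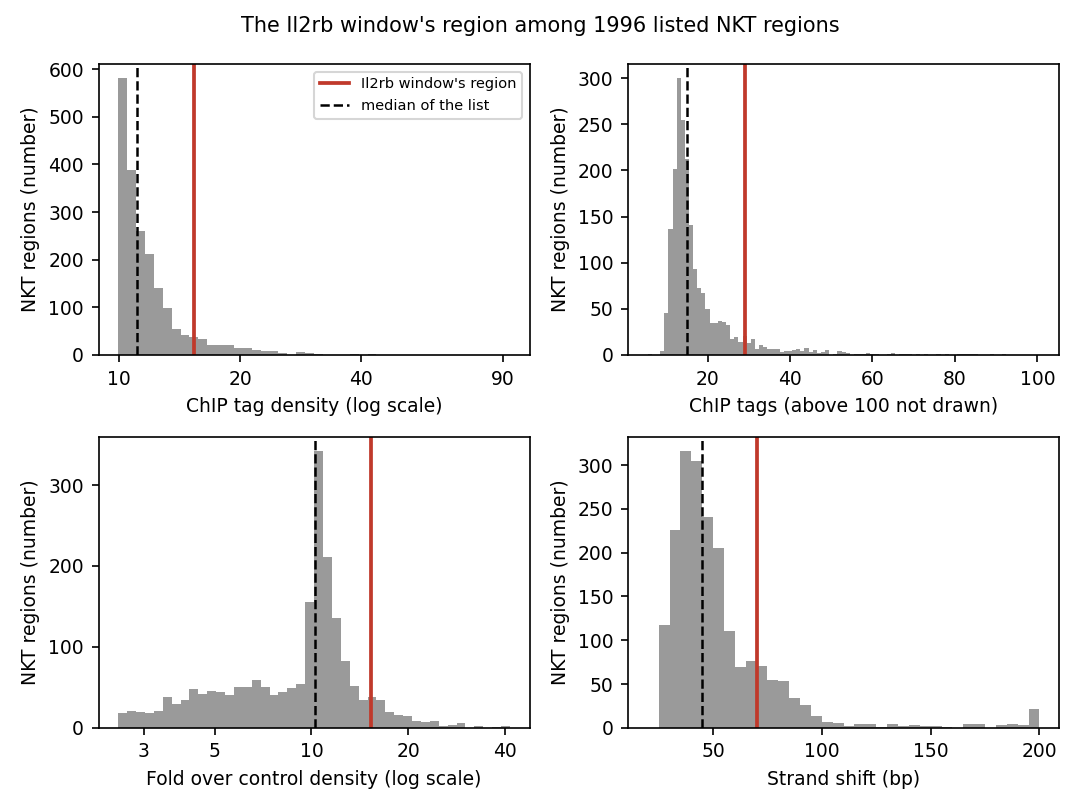
Distribution of ChIP tag density, ChIP tags, fold over control and strand shift over the 1996 listed NKT regions (grey bars, number of regions), with the Il2rb window's region as a red line and the list's median as a dashed line; regions with more than 100 ChIP tags (8) are not drawn in the tag panel. The red line lies right of the median in every panel: density 15.3 against 11.1, 29 tags against 15, fold 15.3 against 10.2 and shift 70 bp against 45 bp.

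These ranks refer to the regions that were analysed. Regions are numbered by falling density, the Il2rb window's region is number 464, and the numbers run to 2885. Counted from 1, 889 of these numbers (30.8%) are absent from the list as analysed here, and 261 of them come before 464. Over all numbers, 83.9% follow it. Placed among all numbered regions it was thus in the upper 16.1% by height.

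The regions next to it by number show what a density of 15.3 can rest on. Number 460, chr3:103932335-103932471, had 18 ChIP tags against 5 control tags and a shift of 39 bp. Number 463, chr17:6429238-6429429, had 23 ChIP tags, no control tag and a shift of 54 bp. Neither overlapped a thymocyte region. Number 466, chr12:52793108-52793334, had 25 against 4 tags and a shift of 64 bp, and number 467, chr11:69734773-69735059, had 28 against 5 tags and a shift of 96 bp. Both overlapped a thymocyte region. Over all 7 other regions of this density, ChIP tags ran from 16 to 37 with a median of 25, control tags from 0 to 8 and shifts from 39 to 96 bp. The Il2rb window's region, with 29 ChIP tags, 2 control tags and 70 bp, lay inside each of these ranges; 2 of the 7 had more ChIP tags and 2 had fewer control tags.

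Strand shift separated it from most of the NKT list. The median NKT shift was 45 bp (quartiles 37 and 58), and 83.5% of the list (81.8% to 85.1%) had a shorter shift than 70 bp. Shifts were longer in the injected-thymocyte list, with a median of 86 bp (quartiles 78 and 95), so 70 bp lay below its lower quartile. NKT regions that overlap a thymocyte region had a median shift of 70 bp, the value of the Il2rb window's region, and NKT regions without such overlap had 42 bp. Of the 1642 NKT regions without overlap, 19 (1.16%), this one included, had both a density and a shift at least as high. Among the 354 with overlap it was 78 (22.03%). Requiring in addition no more than 2 control tags left 6 of the former, this one included, and 37 of the latter. By height, shift and control the region therefore sat where regions found in both lists are frequent, although it was itself found in NKT cells only.

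**Figure D2:**
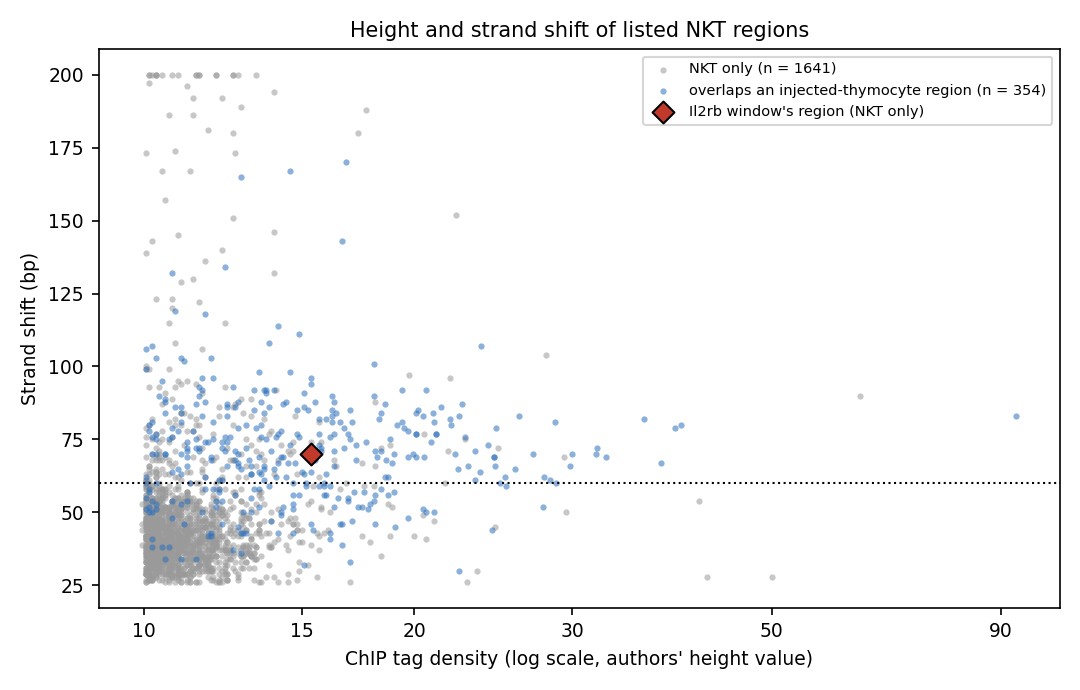
ChIP tag density (log axis) against strand shift (bp) for each listed NKT region, blue where it overlaps an injected-thymocyte region and grey where it does not; the dotted line is at 60 bp. The Il2rb window's region (red diamond, 15.3 and 70 bp) lies above the dotted line, outside the dense grey group of short shift and low density.

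No injected-thymocyte region overlapped the NKT region or any other part of the window. The nearest listed thymocyte region to the left was chr15:78009893-78010014, 260 kb from the window's edge, with its summit 316 kb from the NKT summit. It was low, with a density of 11.5, and held 13 ChIP tags against 4 control tags, a scaled ratio of 2.41 (0.745 to 10.1). The interval includes 1, and the strand correlation of that peak was 0.0440. To the right the nearest was chr15:78669244-78669359, 299 kb from the edge and 344 kb between summits. Its density was 11.02, with 14 ChIP tags against 1 control tag (10.4-fold, 1.58 to 439). The deposited tag enrichment of this region was lower, at 3.82, and the strand correlation of its peak was 0.424. Both flanking thymocyte regions thus stood close to the median density of their list, 11.2, and not among its taller regions.

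Absence from the list means that no region analysed here overlapped the window. The thymocyte tag count at the NKT summit was not analysed here, and the lowest listed thymocyte density was 10.0, so the list holds no value for a site below it. In addition, 759 of the 4975 thymocyte region numbers (15.3%) are absent from the list as analysed and may include a region in the window. A lower thymocyte signal at Il2rb is therefore not measured by these lists. Thymocytes comprise cells of many stages, and binding in fewer cells cannot be told apart from weaker binding per cell.

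Absence of overlap was the common state of NKT regions: 354 of 1996, or 17.7% (16.1% to 19.5%), overlapped a thymocyte region by at least 1 bp, so that 82.3% did not. Overlap was more frequent among regions that resemble the Il2rb window's region, to a degree that depends on how likeness is set. Of the 475 NKT regions shifted by at least 60 bp, 53.7% (49.1% to 58.2%) overlapped. Of the 153 other NKT regions whose density lay within 10% of 15.3, 87 did (56.9%, 48.6% to 64.8%), and within 20% it was 175 of 431 (40.6%, 35.9% to 45.4%). The intervals for a shift of at least 60 bp alone and for a density within 10% alone both include 50%. Where a density within 10% met a shift of at least 60 bp, it was 61 of 83 (73.5%, 62.7% to 82.6%), and with a shorter shift 26 of 70 (37.1%, 25.9% to 49.5%). The Il2rb window's region falls with the 22 of those 83 that were not found in the thymocyte list. Limiting the shift to 60 to under 80 bp, closer to its 70 bp, gave 36 of 52 (69.2%, 54.9% to 81.3%). These comparison groups were chosen with the values of the region known, and they describe the lists without testing a difference.

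**Figure D3:**
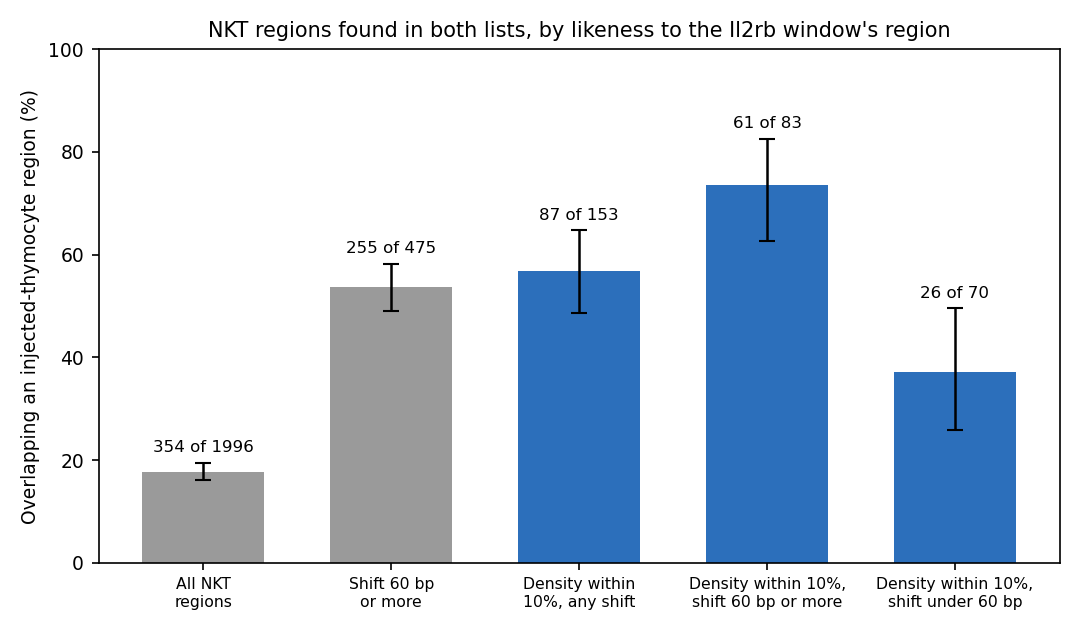
Share of NKT regions that overlap an injected-thymocyte region by at least 1 bp, for all NKT regions, for those shifted by at least 60 bp and for those whose density lies within 10% of the Il2rb window's region, which is itself left out of the blue bars; error bars are exact 95% binomial intervals. The highest bar, 61 of 83 regions, combines a density within 10% and a shift of at least 60 bp. The Il2rb window's region, which has no overlap, meets both limits.

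At the 61 comparable positions that were found in both lists, the thymocyte density ranged from 10.0 to 64.8 with a median of 26.3. The scaling of density is not stated, so these values are set beside each other without a ratio. Some NKT regions as tall as that of the Il2rb window thus had thymocyte regions at the lower limit of the thymocyte list, and others among its tallest. The distance to the nearest thymocyte summit, 316 kb, was not extreme. Over the 1641 other NKT regions without overlap the median distance was 209 kb (quartiles 75.4 and 448 kb), and 63.7% had a nearer thymocyte summit.

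Within 1 Mb on either side of the NKT summit, the NKT list held 4 regions and the thymocyte list 6, and 2 positions were common to both. No NKT region lay on the left side within this distance; the nearest there was chr15:76456481-76456713, with its summit 1869 kb away, a density of 13.4, 22 ChIP tags and 2 control tags. On the right side the nearest NKT region was chr15:78765451-78765722, 440 kb from the Il2rb summit, with a density of 12.99, 26 ChIP tags and 1 control tag. Nothing was listed in NKT cells between this position and the Il2rb window. Both of these flanking NKT regions overlapped a thymocyte region, unlike the one in the window. Over the whole NKT list 17.7% of regions overlapped, so lack of overlap was the more common state.

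At the right-hand position the thymocyte region, chr15:78765215-78765733, reached a density of 52.4, with 98 ChIP tags and 2 control tags, and only 15 listed thymocyte regions were taller. The summits of both lists lay 2 bp apart there. The NKT region at that position was less tall than the one in the Il2rb window (12.99 against 15.3) and held 26 against 29 ChIP tags. Thus 2 NKT regions of similar height on the same stretch of chromosome 15 differed in the thymocyte list: 1 matched 1 of its tallest regions, and the other matched none. The second common position was chr15:79177630-79177876 in NKT cells, 852 kb from the Il2rb summit, with a density of 14.6, 22 ChIP tags, 5 control tags and a shift of 43 bp. Its thymocyte counterpart reached 18.99, with 47 ChIP tags and 1 control tag.

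**Figure D4:**
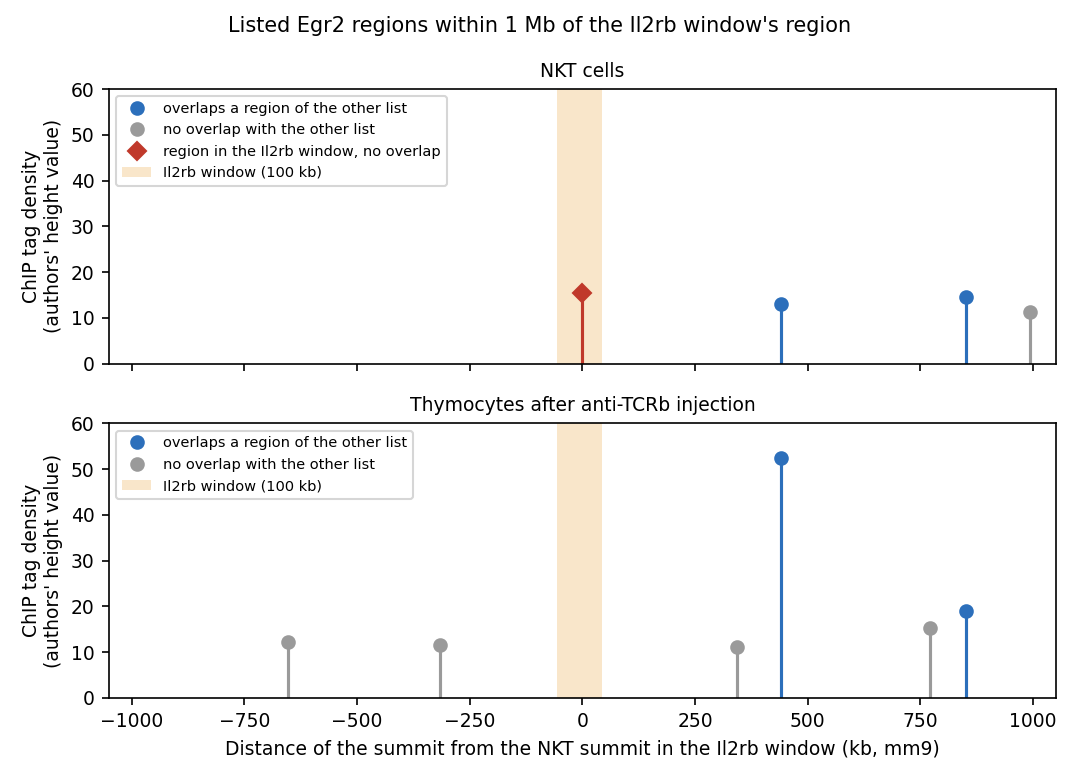
Listed Egr2 regions within 1 Mb of the NKT summit in the Il2rb window: distance in kb (mm9) against ChIP tag density, for NKT cells (top) and injected thymocytes (bottom), with positions found in both lists in blue and the 100 kb window shaded. The window holds 1 NKT region (15.3) and no thymocyte region, and the tallest bar nearby is the thymocyte region of 52.4 at 440 kb; density is not on a common scale between the panels.

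Most stretches of this size held no listed NKT region. When the chromosomes were cut into 26312 consecutive stretches of 100 kb up to the last listed region, 1877 (7.13%) held an NKT summit, and 1776 of these held a single one. The corresponding number for the thymocyte list was 3710 (14.1%). These stretches were not chosen for genes or for sequence that can be aligned, so the shares are no background for a gene locus. Region numbers absent from the lists are not counted. Of the 1877 stretches with an NKT summit, 1290 (68.7%) had no thymocyte summit, as was the case for the Il2rb window. Chromosome 15 as a whole carried 87 NKT regions, of which 24 overlapped a thymocyte region, and 184 thymocyte regions.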

How the data were processed

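Alignment used Bowtie and the mm9 build, per the submitters' processing notes; the peak caller, the version of Bowtie and the scaling of densities are not given in the sources used here. For each Egr2 library the authors deposited a list of region lines, each paired with a peak line. The deposited signal values are tag densities of ChIP and control at each summit, and the deposited fold is their ratio, with the control density raised to 1 where lower. Tag counts, strand shift and −log10 q values were deposited with them. Libraries were made from 100 ng of ChIP DNA with 16 PCR cycles, and fragments of 150 to 400 bp were selected, per the labels' protocols. The depth of each library is unknown, so each region's own tags set its precision. PCR duplicates are not independent molecules, so intervals may be too narrow.

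Lists were read with Python 3.11.15, and intervals are exact (Clopper-Pearson) from SciPy 1.17.1. Tag ratios were scaled by the constant ratio seen in regions with more than 50 control tags (17 NKT and 7 thymocyte regions). The reader, overlap count and interval were tested on simulated data. Named items are every region in the window, the nearest region on each side in each list, and the 2 regions above and below by number; regions within 1 Mb were added after their values were seen. The window, lists and comparison groups were chosen with earlier results of these data known. Whether positions in the lists start at 0 or 1 is not stated. No mm9 annotation was used, so receptor pathway genes were not matched to regions. A search for the EGR motif in the Il2rb promoter was not run, since the promoter table at hand matched 10 of 12 pathway genes and Il2rb and Il15 were not among them.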

Additional observations from a re-analysis of the deposited data

How the results depend on the processing

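The count of 1 NKT region and 0 thymocyte regions was the same with the window extended by 50 or 200 kb on each side, in the upper 50% of each list by density, with a control density under 3 and with a strand shift of 60 bp or more. Filters cannot raise a count of 0, so for the thymocyte list only the wider windows could have changed it. Overlap between the lists stayed at 0 with summits within 100 bp, a reciprocal overlap of 50% and regions extended by 500 bp. With the nearest thymocyte summit 316 kb away, none of these overlap settings could change it. In all, 21 of 25 alternatives changed the value by nothing or by less than its counting interval, and 4 went beyond it. The 21 include settings that could not change the value, so their number is no measure of stability. For the rank, the interval treats the listed regions as a sample. The ratio of ChIP to control tags, 16.5 after scaling, is 14.5 unscaled and 8.35 as the deposited tag enrichment. The latter is lower by more than 1.5 times and stays inside the ratio's wide interval (4.17 to 142), so it counts among the 21. The share of listed NKT regions below the Il2rb window's region, 89.6% by density, became 92.4% by fold over control, 71.6% among the 475 regions shifted by at least 60 bp, of which 130 are taller, and 83.9% over all region numbers, absent ones included. The last of these, the shift read from the region line and the other density ranges were added after seeing the data. With a density within 5% or 20% of the region, 75.7% and 66.1% of regions with a shift of 60 bp or more overlapped, against 73.5% within 10%. With any shift the shares were 54.7% and 40.6%, against 56.9%, and the value at 20% lies below the interval of the value at 10%. No paired analysis was possible because there was 1 library per condition. The enrichment rests on 2 control tags, and the thymocyte signal below the limit of the list was not measured.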

Other observations

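Promoter sequences of the interleukin-2 and interleukin-15 receptor pathway were searched for EGR motifs on both strands, in RefSeq's GRCm38.p6 windows from 250 bases before to 50 after each start. Of 12 listed genes, 10 were matched, with 13 promoters, and Il2rb and Il15 were not among them. GCGTGGGCG was found in none of the 13, against 0.612% of all 32851 promoters, and GCGGGGGCG in none, against 2.91%. The shorter GTGGGCG, which is contained in the first, was found in 1 of 13, a promoter of Il15ra, which encodes the alpha chain that presents interleukin-15, against 7.97% of all promoters. With shares this low, none or 1 match among 13 promoters shows neither a lack nor an excess of the motifs. These matches are letters in a window and were not compared with the peak lists.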
